A study of Mus musculus with 30 samples.

Results

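Ppargc1a, Ppargc1b and Esrra, the genes of the coactivators PGC-1alpha and PGC-1beta and of the nuclear receptor ERRalpha, were followed by symbol in a table of 29117 genes. Each symbol had a level in every library, so 3 of 3 genes were analysed and all 3 passed the filter on low values that left 13589 genes for testing. The samples were left liver lobes of 10-week-old C57BL/6J mice, fasted for 12 to 16 h and then given an intraperitoneal injection of human insulin at 0.7 U/kg or of PBS. Livers were sampled at 5 points over 4 h in both arms, with 3 libraries per treatment and point, 30 in all. Points carry the labels' numbers 1 to 5, since no minutes are given, and nothing is read from their spacing. Every mouse had been fasted, and no fed group was analysed here. The labels call the triplicates biological but do not identify animals, so the p-values measure the spread between these samples.

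PGC-1alpha and PGC-1beta are transcriptional coactivators. They do not bind DNA themselves but dock on nuclear receptors and other factors and recruit machinery that opens chromatin and starts transcription. ERRalpha is an orphan receptor that depends on them to switch on genes of mitochondrial respiration and fatty acid oxidation. In liver, Ppargc1a is known to be induced in fasting through glucagon, cAMP and CREB and to coactivate gluconeogenic genes, whereas PGC-1beta is known as a coactivator of SREBP-driven lipid synthesis. Insulin is known to restrain the hepatic action of PGC-1alpha through Akt and FOXO1.

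Levels were FPKM, a measure per length of transcript and per mapped fragment, as deposited. Differences are insulin minus PBS on the scale log2(FPKM + 1), with standard errors and p-values from limma across the 13589 genes, adjusted by Benjamini-Hochberg over all of them and called at an adjusted p of 0.05. A gene said to rise or fall at a point was called higher or lower in insulin than in PBS livers there, not between points. The added 1 makes a difference of a low gene smaller than that of its FPKM. Total reads were not in the table and depth is unknown. The 3 libraries of a group had pairwise Pearson r of 0.966 to 0.983 over genes. The median difference of all tested genes was -0.06, -0.12, -0.14, -0.14 and -0.17 at points 1 to 5, and between -0.01 and 0.00 after median-ratio scaling. Summed hepatocyte markers were at 38739 to 53219 FPKM in insulin libraries and 43833 to 53555 FPKM in PBS libraries. In this bulk tissue, fewer cells of a type and less RNA per cell cannot be told apart. Insulin libraries were on lanes 1 and 2 and PBS libraries on lanes 3 to 5 per the labels, so a lane effect and an insulin effect cannot be told apart at any point or in a mean over points.

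Ppargc1a was lower in insulin than in PBS livers at points 1 and 2 by amounts that passed no test, then far higher at point 3, and still higher at points 4 and 5. The gene lies on the minus strand of chr5:51454250-51567726 (GRCm38) and has 5 annotated transcripts, 3 of them coding, whose starts fall into clusters 13804 bases apart. The gene-level FPKM does not separate these starts, and 3 of the 5 transcripts begin at the downstream one, whose promoter was not searched here. These include the longest coding transcripts, of 6464 and 2754 exonic bases. Those at the upstream start are a coding transcript of 488 bases and one of 2452 bases annotated as nonsense-mediated decay. The RefSeq promoter window (GRCm38.p6, chr5:51567676-51567975, minus strand) lies at the upstream start. It was searched because cAMP signalling is the best known input of this gene, and its matches do not describe the downstream promoter. The capitals mark 1 match, on the minus strand of the window, to TGACG, the core letters of a cAMP response element (CRE), 49 bases before the start.
Ppargc1a: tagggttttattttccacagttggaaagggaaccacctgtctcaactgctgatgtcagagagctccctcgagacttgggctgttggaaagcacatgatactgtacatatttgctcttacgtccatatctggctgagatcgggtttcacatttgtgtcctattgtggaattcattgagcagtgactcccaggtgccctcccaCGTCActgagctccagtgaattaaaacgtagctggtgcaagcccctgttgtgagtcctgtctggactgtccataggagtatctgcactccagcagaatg
This CRE core was found on either strand in 20.8% of 32851 windows of the same length. The full palindrome TGACGTCA, which contains the core on both strands, had no match in this window at the upstream start and was present in 1.8% of all windows. A FOXO site GTAAACA and an ERR element AAGGTCA had no match either, against 3.6% and 4.7% of all windows.

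At point 1, Ppargc1a was at 1.55, 1.65 and 1.82 FPKM in insulin livers, against 2.59, 2.55 and 2.46 FPKM in PBS livers. At point 2, the levels were 1.39, 1.17 and 1.31 FPKM in insulin livers, against 2.17, 1.61 and 1.40 FPKM in PBS livers. The insulin libraries lay below the PBS libraries at both points without overlap, as did 6.44% and 18.6% of all tested genes, and the differences of -0.40 and -0.24 (SE 0.14 each) were not called (limma, adjusted p 0.561 and 0.381). At point 1, 0% of all genes were called higher and 0.00736% lower, and at point 2, 0.618% higher and 0.736% lower. At point 3, the insulin livers held 20.3, 17.5 and 13.2 FPKM, against 2.11, 1.71 and 1.74 FPKM in PBS livers. Every insulin library was thus far above every PBS library, and the ratio of the mean FPKM was 9.15.

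At point 4, Ppargc1a was at 7.03, 8.83 and 6.58 FPKM in insulin livers, against 2.30, 2.02 and 2.00 FPKM in PBS livers. At point 5, it was at 6.24, 7.66 and 8.52 FPKM in insulin livers, against 1.74, 2.41 and 1.51 FPKM in PBS livers. The arms were apart at both points, with ratios of mean FPKM of 3.55 and 3.96. The log2 differences at points 3, 4 and 5 were 2.64, 1.44 and 1.56 (SE 0.14 each, limma, adjusted p 1.76e-11, 1.69e-06 and 3.29e-07). At these points 2.19%, 2.82% and 2.96% of all genes were called higher with insulin, and 7.26%, 10.4% and 16.1% lower. Insulin libraries lay wholly above PBS libraries for 7.65%, 8.01% and 6.42% of all genes. By p, Ppargc1a ranked 1 of all 13589 genes at point 3 and 4 at points 4 and 5. By the size of the difference it was the 3rd highest at point 3, the 31st at point 4 and the 29th at point 5.

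**Figure D1:**
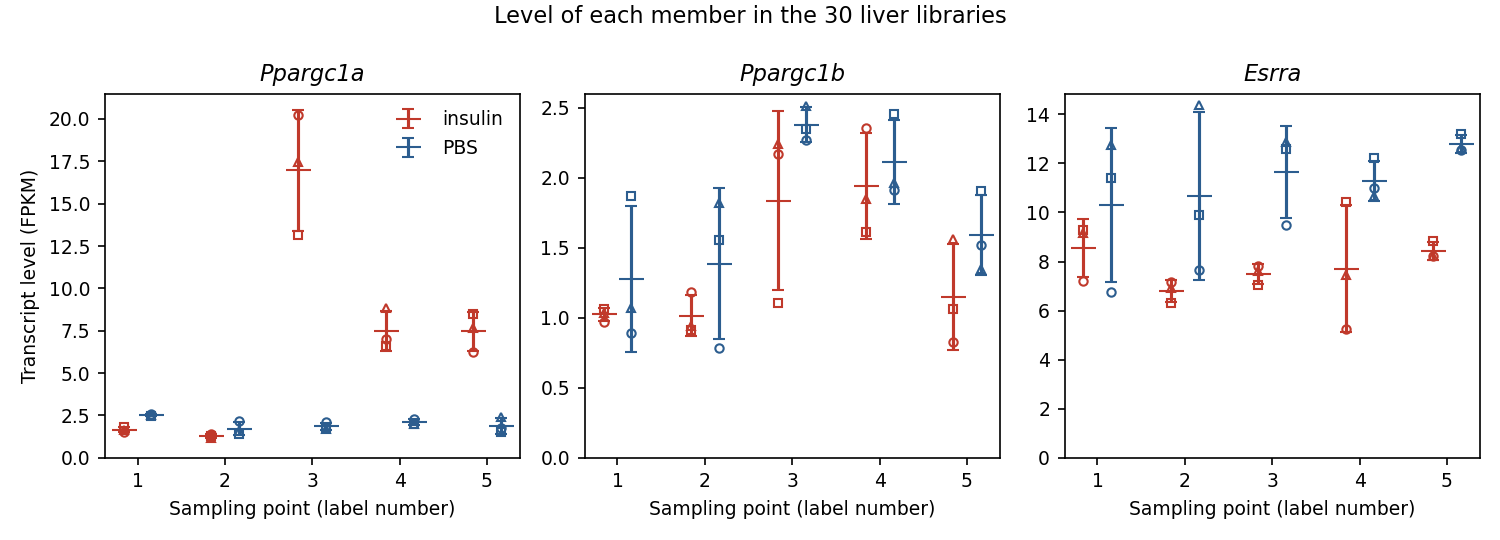
Transcript level in FPKM (vertical axis) of Ppargc1a, Ppargc1b and Esrra at sampling points 1 to 5 (horizontal axis), insulin left of PBS at each point, with 1 mark per library (circle, triangle and square for replicates 1, 2 and 3) and the group mean with its SD. The Ppargc1a insulin libraries sit at 13.2 to 20.3 FPKM at point 3 while all PBS libraries stay at or below 2.59 FPKM, and the Esrra insulin libraries lie below the PBS libraries at points 2 to 5.

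The called movement of Ppargc1a over points lay in the insulin arm. Its insulin minus PBS difference depended on the point (limma F = 80.2, adjusted p 9.85e-10), a call made for 1.77% of genes. Among the 15 insulin libraries its level varied over points (limma F = 149, adjusted p 8.69e-13, called for 13.3% of genes). Among the 15 PBS libraries it was not called variable (limma F = 2.16, adjusted p 0.482, 3.27% of genes called). Within the insulin arm, point 3 exceeded point 2 by 2.95 (limma, adjusted p 1.35e-12), a step up called for 0.493% of genes. Point 4 was below point 3 by a difference of -1.07 (limma, adjusted p 0.000385), a step down called for 0.103% of genes. The insulin steps between points 1 and 2 (-0.22, adjusted p 0.564) and between points 4 and 5 (-0.00, adjusted p 1) were not called by limma, nor was any of the 4 PBS steps. In order of points, the PBS steps were -0.38, 0.07, 0.12 and -0.12 (limma, lowest adjusted p 0.347, for the first).

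Of the 15 insulin libraries, 9 lay above the highest PBS library of any point and 3 lay below the lowest. Ordered by mean level, insulin point 3 came first, followed by insulin points 4 and 5, which overlapped each other. PBS point 1 was next and stood apart from its neighbours in the order. PBS points 4, 5, 3 and 2 and insulin point 1 then overlapped from one to the next, and insulin point 2 was lowest and apart. Skeletal muscle, which also expresses Ppargc1a, was checked through 4 of its 5 marker genes; the other was not analysed here. These summed to 0.398 to 0.804 FPKM in insulin libraries and 0.382 to 12.7 FPKM in PBS libraries. The 12.7 FPKM belonged to PBS point 5 replicate 3, whose Ppargc1a level was 1.51 FPKM; the 9 libraries with the highest Ppargc1a are insulin libraries and lie in the low range. Kupffer cell markers summed to 48.3 to 104 FPKM in insulin and 63.2 to 185 FPKM in PBS libraries, with 2 of 6 markers called lower at point 4, where 10.4% of all genes were. Sinusoidal endothelial markers summed to 34.6 to 50.5 FPKM in insulin and 41.7 to 66.3 FPKM in PBS libraries, with 1, 1 and 2 of 5 called lower at points 3, 4 and 5, where 7.26%, 10.4% and 16.1% of all genes were. The part of these cell types in the members' values was not tested.

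Ppargc1b did not follow Ppargc1a. The gene (chr18:61298136-61400431, minus strand, host of Mir378a in an intron) was low in all libraries, and no difference at a single point was called. At point 3, it was at 2.17, 2.24 and 1.10 FPKM in insulin livers, against 2.27, 2.51 and 2.35 FPKM in PBS livers. This was the only one of the 5 points at which its arms did not overlap, a pattern of 27.8% of all genes there, and the difference was -0.28 ± 0.18 (SE, limma, adjusted p 0.338). At point 1, the insulin livers held 0.971, 1.04 and 1.07 FPKM, against 0.888, 1.07 and 1.87 FPKM in PBS livers. At point 2, they held 1.18, 0.945 and 0.915 FPKM, against 0.781, 1.82 and 1.56 FPKM in PBS livers. Both insulin groups were the lowest of the 10 in mean level.

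At point 4, Ppargc1b was at 2.35, 1.85 and 1.61 FPKM in insulin livers, against 1.91, 1.96 and 2.46 FPKM in PBS livers. At point 5, it was at 0.826, 1.56 and 1.06 FPKM in insulin livers, against 1.52, 1.35 and 1.91 FPKM in PBS livers. The arms overlapped at both. The differences at points 1, 2, 4 and 5 were -0.15, -0.22, -0.09 and -0.28 (SE 0.18 each, limma, adjusted p 0.865, 0.549, 0.791 and 0.295), and at point 4 the sign turned with median-ratio scaling (0.03) and quantile normalization (0.07). In both arms the mean was highest at points 3 and 4, at 1.84 ± 0.637 and 1.94 ± 0.379 FPKM with insulin and 2.38 ± 0.124 and 2.11 ± 0.300 FPKM with PBS (SD, n = 3 each). Variation over points was not called in the insulin arm (limma F = 4.11, adjusted p 0.0726) or in the PBS arm (limma F = 3.92, adjusted p 0.181). The difference between arms was not called dependent on the point (limma F = 0.213, adjusted p 0.989). All neighbouring groups in the order of levels overlapped, and no insulin library lay outside the range of the PBS libraries.

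Esrra was lower in insulin than in PBS livers at points 2 to 5, by a like amount at each, without reaching the threshold at any single point. The gene lies on the minus strand of chr19:6910977-6921813 and has 5 annotated transcripts, 3 of them coding. Its RefSeq promoter window (GRCm38.p6, chr19:6921759-6922058, minus strand) is shown beside that of Ppargc1a, and none of the 4 motifs searched has a match in it. The palindrome, FOXO and ERR motifs had no match in the Ppargc1a window either. Whether the windows bear on the levels of these genes was not tested.
Esrra: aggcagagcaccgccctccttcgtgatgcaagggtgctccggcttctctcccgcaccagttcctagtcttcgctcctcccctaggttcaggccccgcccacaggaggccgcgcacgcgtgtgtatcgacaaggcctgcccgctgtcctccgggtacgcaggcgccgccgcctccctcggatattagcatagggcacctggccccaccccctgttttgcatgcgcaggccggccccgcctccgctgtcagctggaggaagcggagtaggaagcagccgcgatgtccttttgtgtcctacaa
The Esrra window has 66.0% G or C and 25 CpG dinucleotides, and the Ppargc1a window 48.7% and 5, against medians of 52.7% and 7 over all windows.

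At point 2, Esrra was at 7.15, 6.93 and 6.30 FPKM in insulin livers, against 7.67, 14.4 and 9.92 FPKM in PBS livers. At point 3, it was at 7.82, 7.63 and 7.03 FPKM in insulin livers, against 9.50, 12.9 and 12.6 FPKM in PBS livers. The arms were apart at both points, and the PBS libraries spread more widely than the insulin libraries. At point 4, the insulin livers held 5.26, 7.45 and 10.4 FPKM, against 11.0, 10.7 and 12.2 FPKM in PBS livers. At point 5, they held 8.21, 8.24 and 8.85 FPKM, against 12.6, 12.6 and 13.2 FPKM in PBS livers. The narrowest groups of both arms were these at point 5, with means of 8.43 ± 0.362 FPKM in insulin and 12.8 ± 0.355 FPKM in PBS livers (SD, n = 3 each). At point 1 alone the arms overlapped, at 7.20, 9.17 and 9.30 FPKM in insulin livers and 6.76, 12.8 and 11.4 FPKM in PBS livers.

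The Esrra differences at points 1 to 5 were -0.21, -0.54, -0.57, -0.54 and -0.55 (SE 0.20 each, limma, adjusted p 0.812, 0.173, 0.0738, 0.0765 and 0.0582). Insulin libraries lay wholly below PBS libraries for 18.6%, 27.8%, 24.3% and 29% of all genes at points 2 to 5, so this separation was common. The difference was not called dependent on the point (limma F = 0.568, adjusted p 0.932), and variation over points was called in neither arm (adjusted p 0.802 with insulin and 0.847 with PBS, limma). After seeing this pattern, the mean of the 5 differences was added as a contrast in the same fit. Its p-values are therefore no independent test of that pattern. For Esrra the mean difference was -0.48 ± 0.090 (SE, limma, adjusted p 0.000185), where 37.6% of all genes were called lower and the median gene was at -0.13. With median-ratio scaling it was -0.34 (limma, adjusted p 0.00111), and over fits that left out 1 series of libraries it ran between -0.60 and -0.40, called in each. Lane and treatment are as confounded in this mean as at a point. The same contrast gave -0.20 ± 0.082 for Ppargc1b (SE, limma, adjusted p 0.0482), a call lost with either scaling (adjusted p 0.327 and 0.438). That call was also lost without insulin replicate 1 (0.0656), insulin replicate 3 (0.229), PBS replicate 2 (0.11) or PBS replicate 3 (0.309). Ppargc1a averaged 1.00 ± 0.065 (SE, limma, adjusted p 3.64e-10), with 7.89% of genes called higher.

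**Figure D2:**
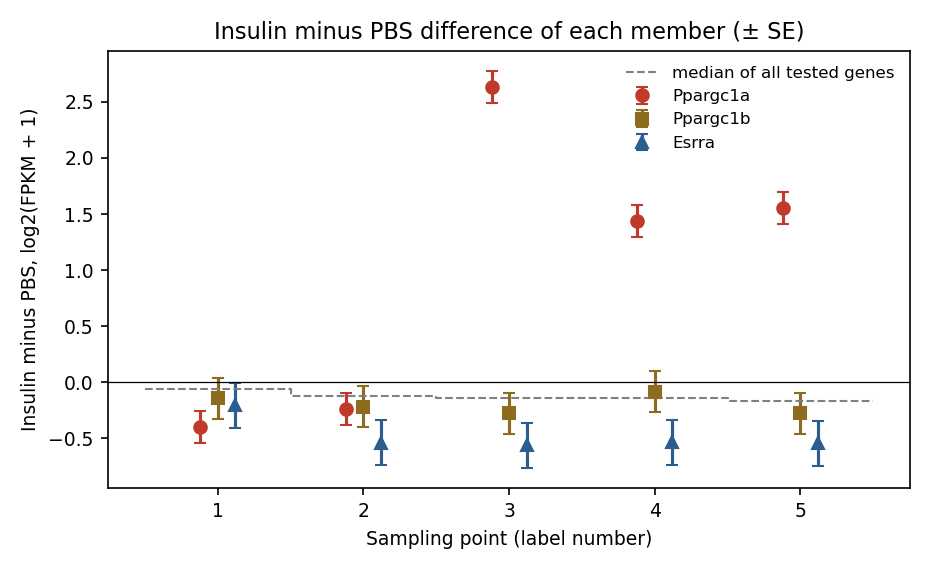
Insulin minus PBS difference on the log2(FPKM + 1) scale (vertical axis) of each member at points 1 to 5 (horizontal axis), with bars of 1 standard error from limma and a dashed line at the median of all tested genes. Ppargc1a stands at 2.64, 1.44 and 1.56 at points 3 to 5, Esrra between -0.57 and -0.54 at points 2 to 5, and Ppargc1b between -0.28 and -0.09 throughout.

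The level of Esrra in the PBS arm also differed between libraries of the same number. PBS replicate 1 had a median of 9.50 FPKM over its 5 points, against 12.8 FPKM in replicate 2 and 12.2 FPKM in replicate 3, and each number of that arm was sequenced on a lane of its own. The end of Esrra overlaps Trmt112 on the opposite strand, a subunit of methyltransferases, which averaged 7.92 FPKM. The kit marks strand but the strand setting of the quantification is not given in the sources used here, so the split of reads between them is uncertain. Trmt112 differed by -0.01, -0.36, -0.44, -0.48 and -0.74 at points 1 to 5 (limma, adjusted p 0.996, 0.347, 0.161, 0.112 and 0.0141). Its Pearson r with Esrra was 0.707 over 30 libraries, -0.193 over the 15 insulin libraries and 0.804 over the 15 PBS libraries. Its part in the Esrra values was not tested. One series of libraries, insulin replicate 1, held 64759 to 69874 FPKM of a ribosomal RNA gene, against 3279 to 7880 FPKM in the other 5 series. Without its library, the differences of Ppargc1a at points 3, 4 and 5 were 2.51, 1.48 and 1.67, all called by limma. Those of Esrra at points 2 to 5 were then -0.58, -0.59, -0.32 and -0.53, none called (limma, adjusted p 0.294, 0.13, 0.367 and 0.145), and the largest shift was at point 4, where the difference with all libraries was -0.54.

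The members diverged within libraries. Each ratio was taken between values of FPKM + 1 in the same library, so it differs from the ratio of the FPKM, most of all for low genes. The log2 ratio of Ppargc1a to Ppargc1b averaged 1.35 in insulin and 0.15 in PBS libraries, a difference of 1.20 (exact permutation test within points, two-sided, 3200000 assignments, p 0.000279). The log2 ratio of Ppargc1a to Esrra averaged -0.54 in insulin and -2.02 in PBS libraries, a difference of 1.48 (same exact permutation test, p 0.000105). These were the 2 ratios computed. At points 3, 4 and 5 the first ratio differed by 2.91, 1.53 and 1.83 and the second by between 1.98 and 3.20, each at an exact p of 0.1, the smallest that 3 against 3 libraries allow. At points 1 and 2 the first differed by -0.26 and -0.02 (exact p 0.4 and 1.0), and the second by -0.20 and 0.30 (exact p 0.7 and 0.4).

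Correlation between members differed by arm. Pearson r of log2 levels between Ppargc1a and Ppargc1b was 0.168 over 30 libraries, 0.678 over the 15 insulin libraries and -0.442 over the 15 PBS libraries. Between Ppargc1a and Esrra r was -0.381 over 30 libraries, 0.059 with insulin and -0.391 with PBS. Between Ppargc1b and Esrra r was 0.383 over 30 libraries, -0.192 with insulin and 0.562 with PBS. These values describe libraries that share lane, depth and arm, and carry no test.

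Of the rest of the family only Pprc1 was tested, and its difference was called at no point. Pprc1, the third PGC-1 coactivator gene, averaged 1.23 ± 0.234 FPKM in insulin and 2.45 ± 0.763 FPKM in PBS livers at point 1 (SD, n = 3 each), a difference of -0.61 (limma, adjusted p 0.526). At points 2 to 5 it differed by 0.02, 0.18, -0.42 and -0.33, none called (limma, adjusted p 0.977, 0.554, 0.117 and 0.205). Within the insulin arm its mean was highest at point 3, as that of Ppargc1a was, with 2.21, 2.99, 1.58 and 1.87 FPKM at points 2 to 5. The PBS means at these points were 2.17, 2.49, 2.49 and 2.56 FPKM. The difference of Pprc1 was not called dependent on the point (limma F = 3.21, adjusted p 0.347). Esrrb reached at most 0.187 FPKM in insulin and 0.322 FPKM in PBS libraries, and Esrrg at most 0.799 FPKM in insulin and 1.45 FPKM in PBS libraries. Neither passed the filter, and Esrra was the only estrogen-related receptor gene tested.

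Among 13 genes that regulate Ppargc1a transcription, 3, 2, 1 and 1 rose at points 2, 3, 4 and 5, and 0, 2, 2 and 4 fell. Of all genes, 0.618%, 2.19%, 2.82% and 2.96% rose and 0.736%, 7.26%, 10.4% and 16.1% fell at these points. Sik1, a cAMP-induced kinase that restrains the CREB coactivator CRTC2, was at 25.7, 42.1 and 37.5 FPKM in insulin livers at point 2, against a mean of 2.02 ± 0.173 FPKM in PBS livers (SD, n = 3). That difference was 3.56 ± 0.41 (SE, limma, adjusted p 1.41e-05). Ppargc1a had its lowest mean at point 2 in both arms, at 1.29 FPKM with insulin and 1.73 FPKM with PBS. Its difference there was not called (limma, adjusted p 0.381), and a link of Sik1 to Ppargc1a was not tested. At point 3, 1 insulin library held 27.9 FPKM of Sik1 and the others 5.20 and 4.85 FPKM. The point 3 call (1.64, limma, adjusted p 0.0154) was lost without that library, insulin replicate 2, or without PBS replicate 3, with an adjusted p of up to 0.0992.

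Crem, a CREB family gene whose ICER product is a cAMP-induced repressor, was at 32.9, 61.0 and 41.3 FPKM in insulin livers at point 3, against 9.28 ± 1.01 FPKM in PBS livers (SD, n = 3). Its differences at points 3, 4 and 5 were 2.12, 1.72 and 1.48 (limma, adjusted p 8.97e-05, 0.000907 and 0.00198). Ppargc1a was also called higher at these points, but a link of Crem to it was not tested. The point 2 difference of Crem, 1.16 (limma, adjusted p 0.0494), lost its call without insulin replicate 2 or 3 or PBS replicate 2 or 3 (up to 0.257). Creb1 was not called at points 1 to 4 and differed by -0.51 at point 5 (limma, adjusted p 0.0328), and Crtc2 was called at no point (limma, adjusted p 0.139 to 0.848). Of the upstream cAMP genes, the glucagon receptor Gcgr and the protein kinase A subunit Prkaca were lower at point 5, by differences of -0.67 and -0.63 (limma, adjusted p 0.00468 and 0.00571). Gcgr was also called lower at points 3 and 4 (-0.50 and -0.54, limma, adjusted p 0.0408 and 0.0228). Those calls were lost without some single libraries (up to 0.128 and 0.106). Creb3l3, a fasting-induced liver factor, was lower at points 4 and 5, by -0.75 and -0.73 (limma, adjusted p 0.00555 and 0.00438). Its point 3 call (-0.66, limma, adjusted p 0.0146) was lost without insulin replicate 2 or PBS replicate 3 (up to 0.0688).

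**Figure D3:**
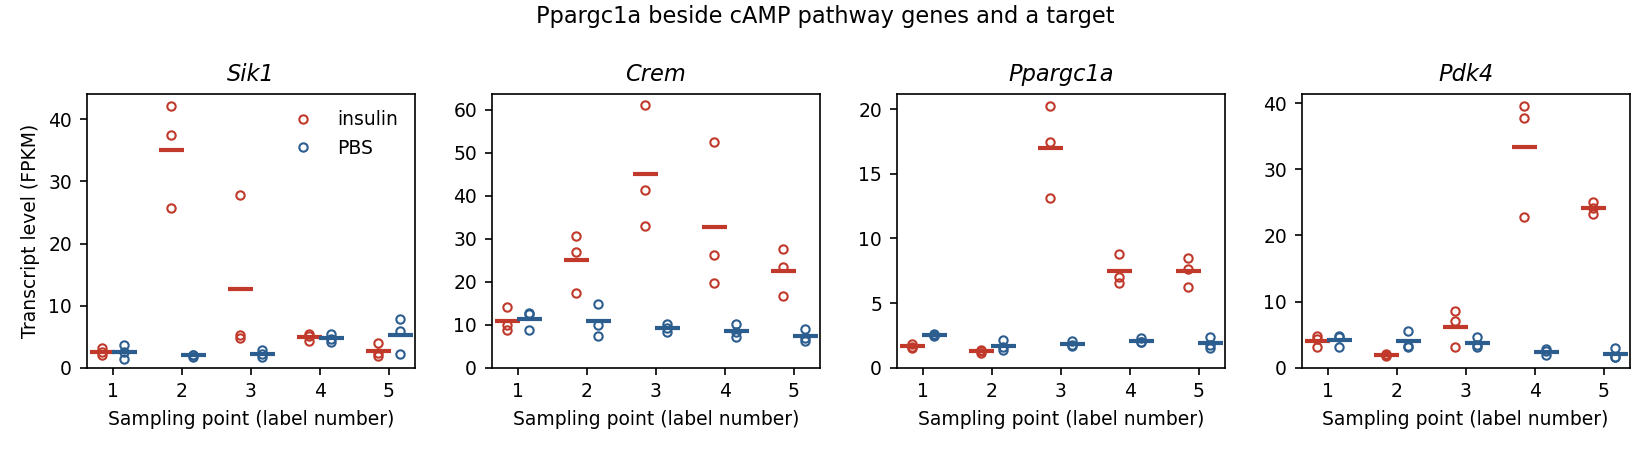
Transcript level in FPKM (vertical axes, each with its own scale) of Sik1, Crem, Ppargc1a and Pdk4 at sampling points 1 to 5 (horizontal axes), insulin left of PBS, with 1 circle per library and a bar at the group mean. Insulin libraries reach 42.1 FPKM of Sik1 at point 2, 20.3 FPKM of Ppargc1a at point 3 and 39.5 FPKM of Pdk4 at point 4.

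Of 11 genes known as hepatic targets of PGC-1alpha, 1 fell at point 1, 1 rose at point 2 and 0 were called at point 3. Of all genes, 0%, 0.618% and 2.19% rose and 0.00736%, 0.736% and 7.26% fell at these points. At points 4 and 5, 3 and 4 rose and 1 and 0 fell, where 2.82% and 2.96% of all genes rose and 10.4% and 16.1% fell. Pdk4, the kinase that shuts pyruvate out of the TCA cycle and a PGC-1alpha and ERRalpha target, was at 3.08, 7.04 and 8.52 FPKM in insulin livers at point 3, against 3.19, 4.65 and 3.37 FPKM in PBS livers. At point 4 it was at 37.7, 39.5 and 22.8 FPKM in insulin livers, against 2.80, 1.96 and 2.50 FPKM in PBS livers. The arms overlapped at point 3 (0.53, limma, adjusted p 0.178) and were far apart at point 4 (3.30, limma, adjusted p 3.58e-08). At point 5 the difference was 3.06 (limma, adjusted p 1.51e-07), with 24.1 ± 0.874 FPKM in insulin and 2.09 ± 0.796 FPKM in PBS livers (SD, n = 3 each).

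Calls among the gluconeogenic targets differed by gene. Tat, a tyrosine-degrading enzyme induced in fasting, rose at points 4 and 5 by 1.26 and 1.06 (limma, adjusted p 0.000802 and 0.00219). G6pc, the glucose-6-phosphatase catalytic subunit, rose at points 2, 4 and 5 by 1.19, 1.36 and 0.98 (limma, adjusted p 0.0406, 0.00521 and 0.0244). Its point 4 call held without each library in turn. The point 2 call was lost without insulin replicate 2 or 3 or any PBS replicate (up to 0.181), and the point 5 call without insulin replicate 1 or 3 or PBS replicate 2 or 3 (up to 0.132). Pck1, which makes phosphoenolpyruvate for gluconeogenesis, averaged 1418 ± 291 FPKM in insulin and 1390 ± 129 FPKM in PBS livers at point 3 (SD, n = 3 each), a difference of 0.01, and was called at no point (limma, adjusted p 0.626 to 0.967). Lpin1, a phosphatidate phosphatase and PGC-1alpha partner, was higher than in PBS livers at point 5 by 2.17 (limma, adjusted p 3.44e-05), with 181 ± 47.6 FPKM in insulin and 38.9 ± 7.47 FPKM in PBS livers (SD, n = 3 each). At point 3 its means were 98.0 FPKM with insulin and 110 FPKM with PBS, so its PBS mean was lower at point 5 than at point 3. At point 1 Lpin1 fell (-1.83, limma, adjusted p 0.0107), the only gene of all tested called there, a call lost without insulin replicate 2 or 3 (up to 0.0907).

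Of 14 ERR and PGC-1 targets of energy metabolism, 0 were called at points 1 to 3. Of all genes, 0%, 0.618% and 2.19% rose and 0.00736%, 0.736% and 7.26% fell there. At point 4 the calls were 1 up and 1 down, where 2.82% of all genes rose and 10.4% fell. At point 5 the calls were 3 up and 2 down, where 2.96% of all genes rose and 16.1% fell. The list's median difference at point 5 was -0.08, against -0.17 for all genes. Of 18 TCA cycle genes, 2 rose and 5 fell at point 5, where 2.96% of all genes rose and 16.1% fell. The subunits of isocitrate dehydrogenase 3 moved apart there. Idh3a, its catalytic subunit, rose by 0.80 (limma, adjusted p 0.000834), whereas Idh3g and Idh3b, its other subunits, fell by 0.62 and 0.43 (limma, adjusted p 0.00318 and 0.00591). Fh1, fumarase, rose by 0.69 (limma, adjusted p 0.00192). It was also called higher at points 3 and 4 (0.51 and 0.47, limma, adjusted p 0.0237 and 0.0278), calls lost without some single libraries (up to 0.114 and 0.127). Of 12 regulators of mitochondrial biogenesis, 0 rose at any point, against at most 2.96% of all genes. At points 4 and 5, 2 fell at each, where 10.4% and 16.1% of all genes fell. Nrf1 and Gabpa, factors that PGC-1alpha coactivates on nuclear genes of mitochondria, were called at no point (limma, lowest adjusted p 0.382 and 0.237).

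Of 12 partners and targets of PGC-1beta in lipid synthesis, 7 fell and 0 rose at point 5, where 16.1% of all genes fell and 2.96% rose. Their median difference was -0.58, against -0.17 for all genes. Srebf1, the SREBP-1 gene, was at 1.93 ± 0.474 FPKM in insulin and 7.52 ± 0.542 FPKM in PBS livers at point 5 (SD, n = 3 each), a difference of -1.55 (limma, adjusted p 0.000198). Fasn, fatty acid synthase, differed by -1.15 and the cholesterol regulator Srebf2 by -0.73 (limma, adjusted p 0.00318 and 0.00837). At points 1 to 4 the list had 0, 0, 1 and 0 genes that rose and 0, 1, 3 and 2 that fell. Of all genes, 0%, 0.618%, 2.19% and 2.82% rose and 0.00736%, 0.736%, 7.26% and 10.4% fell at these points. Ppargc1b itself differed by -0.28 at point 5 without a call.

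Of 8 nuclear receptor and factor partners of the PGC-1 proteins, 1 rose and 4 fell at point 3, where 2.19% of all genes rose and 7.26% fell. Their median difference was -0.38, against -0.14 for all genes. Ppara, the fatty acid receptor of the fasted liver, was at 34.1 ± 8.32 FPKM in insulin and 63.8 ± 5.35 FPKM in PBS livers there (SD, n = 3 each), a difference of -0.91 (limma, adjusted p 0.000781). The xenobiotic receptor gene Nr1i3 differed by -0.99 and the shared heterodimer partner Rxra by -0.66 (limma, adjusted p 0.00217 and 0.00408). Rxra was also lower at points 4 and 5 (-0.585 and -0.75, limma, adjusted p 0.00778 and 0.000888), the point 4 call being lost without insulin replicate 1 (0.0511). Ppara and Nr1i3 were called lower at point 4 as well (-0.60 and -0.72, limma, adjusted p 0.0148 and 0.015). Both calls were lost without some single libraries (up to 0.079 and 0.0813). Of 20 enzymes and repressors that modify PGC-1 proteins, at most 2 rose and 2 fell at any point, and of 5 genes of the coactivator complex 0 were called at any point. Over all lists, of 108 tested genes 0, 4, 6, 8 and 9 rose and 1, 1, 11, 14 and 22 fell at points 1 to 5, against 0%, 0.618%, 2.19%, 2.82% and 2.96% of all genes that rose and 0.00736%, 0.736%, 7.26%, 10.4% and 16.1% that fell. The balance turned with median-ratio scaling, by which 11, 16 and 16 list genes rose and 4, 11 and 13 fell at points 3, 4 and 5. That scaling also moved the median difference of all genes to -0.01 at each of these points. The shares of all genes that rose or fell with it are not given here, so this turn cannot be called particular to the list genes. The genes given here with their values for points 3 to 5 kept their calls when any 1 library of the point was left out, except where a loss is stated and except Creb1 and Trmt112, for which this was not run.

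**Figure D4:**
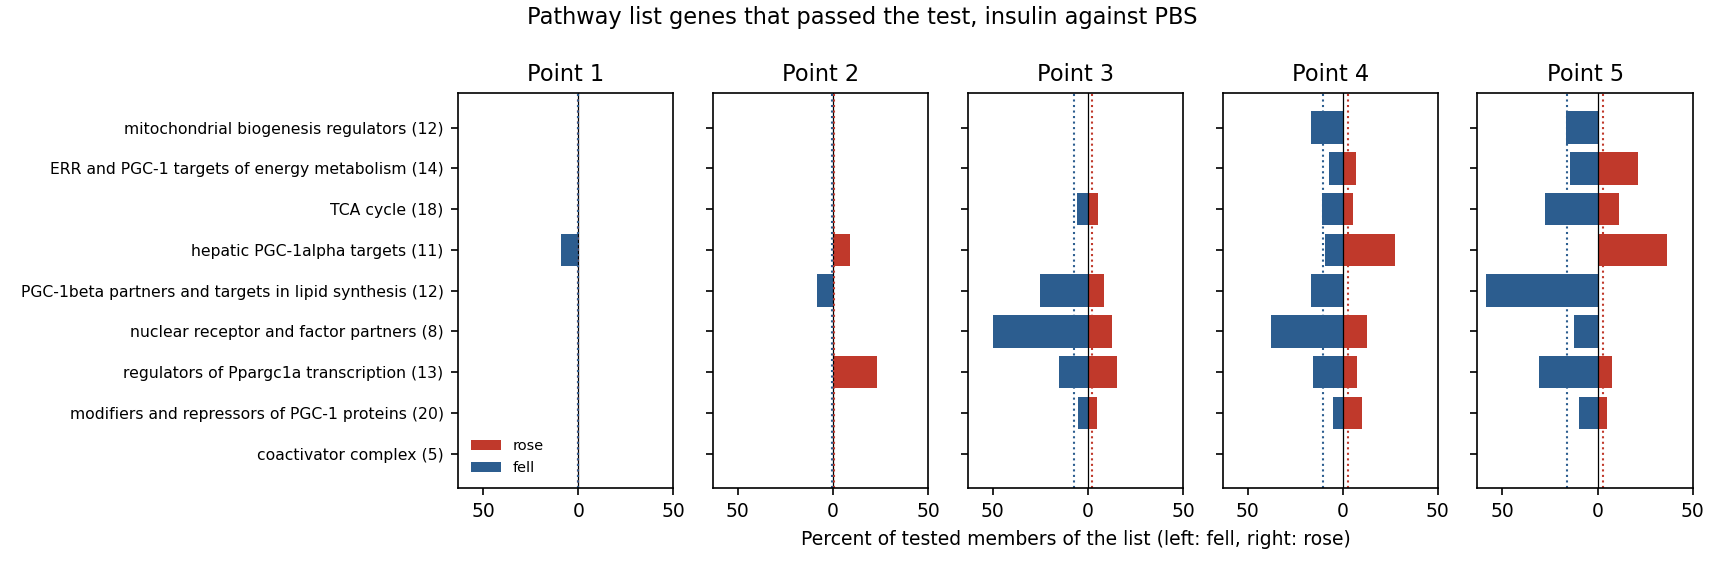
Percent of the tested genes of each PGC-1 pathway list (list size in brackets) that rose, to the right, or fell, to the left, with insulin against PBS at each point; dotted lines mark the percents over all genes. At point 5 the lipid synthesis list holds 7 lower and 0 higher genes of 12, and the hepatic PGC-1alpha target list 4 higher and 0 lower genes of 11.

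The genes most like each member were found by Pearson r of log2 levels over the 30 libraries, among genes at a mean of 1 FPKM or more, as a description. Ppargc1a was most like Eprs (r = 0.880), the glutamyl-prolyl-tRNA synthetase gene, followed by Pik3c2a (0.859), Mapkapk2 (0.847), Lclat1 (0.833) and Rnf217 (0.833). Eprs was at 52.6 ± 9.93 FPKM in insulin and 22.0 ± 2.02 FPKM in PBS livers at point 3 (SD, n = 3 each). Its r with Ppargc1a was 0.871 within the 15 insulin libraries, against 0.132 within the 15 PBS libraries. Spearman's rho over the 30 libraries was 0.499 to 0.733 for these 5 genes, below their Pearson r.

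Ppargc1b was most like Hs6st1 (r = 0.780), a heparan sulfate sulfotransferase gene, followed by Mnt (0.778), Scrib (0.776), Wbp1l (0.755) and Ubtd1 (0.751). Here the likeness was present in both arms, with r of 0.652 for Hs6st1 in the insulin and 0.847 in the PBS libraries. Esrra was most like Gchfr (r = 0.921), the feedback regulator of GTP cyclohydrolase, followed by the branched-chain keto acid dehydrogenase gene Bckdha (0.916), the complex III gene Cyc1 (0.907), the junction protein gene Jup (0.905) and the tyrosine catabolism gene Fah (0.902). Gchfr was at 57.3 ± 1.42 FPKM in insulin and 102 ± 10.5 FPKM in PBS livers at point 5 (SD, n = 3 each), and its r with Esrra was 0.625 in the insulin and 0.956 in the PBS libraries.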

How the data were processed

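Levels of 29117 genes in 30 left liver lobe libraries were used, with a poly(A) selected, directional preparation per the labels. The deposited values were FPKM, made by the authors with HISAT2 2.1.0, SAMtools 1.9 and StringTie 2.0.3 on GRCm38 (mm10), per the submitters' processing notes. Neither annotation nor strand setting is stated in the sources used here. FPKM scale to each library's mapped fragments, so a large transcript class lowers the others. Empty cells (32.2%, none in the members) were set to 0, which touched 893 of the tested genes. Low values were whole reads in at most 41.7% of cases (within 0.05 reads), so no reads were recovered and no count test was run, and depth per sample is unknown.

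Genes at 1 FPKM or more in 3 or more libraries (13589) were tested as log2(FPKM + 1) with limma 3.58.1 in R 4.3.3 (10 group means, intensity trend, 20 residual degrees of freedom, threshold 0.05 after Benjamini-Hochberg adjustment). The fit was tested on simulated data. Where a symbol repeated, the row with the highest mean was used. Ratios of FPKM + 1 were tested by exact permutation within points. Named genes were the members, up to 4 called genes per list and point with the smallest adjusted p, 7 genes fixed by name (Pprc1, Esrrb, Esrrg, Pdk4, Creb1, Crtc2, Sik1), and the 5 genes most like each member. Of the list genes, those whose call held without each library are mainly given with values, and Pck1, Nrf1 and Gabpa were singled out after their values were seen. The members and lists were chosen with earlier results of these data known. Positions come from GENCODE M21 and promoter windows from RefSeq (GRCm38.p6), 250 bases before to 50 after the start, printed for 2 of the 3 members. Same-numbered libraries of the arms did not deviate together, so numbers were not used as pairs. Alternatives covered pseudocount, filter, scaling, replicate block, series as a random effect, lane, trend and left-out libraries. One named list gene is not reported here.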

Additional observations from a re-analysis of the deposited data

Results flagged for a closer look

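The insulin minus PBS difference itself changed with the sampling point for Ppargc1a (adjusted p 9.85e-10, limma F test over all genes), which was not called at points 1 and 2 and rose at points 3 to 5. With lane as a term, the adjusted p was 1.46e-08. The same test passed for 10 of the 108 tested list genes, against 1.77% of all genes, with these adjusted p values from limma. They were 7.59e-08 for Pdk4, 1.81e-05 for Lpin1, 0.00051 for Sik1, 0.00287 for Tat and 0.0157 for Fh1. They were 0.03 for Pde4b, a cAMP phosphodiesterase gene, 0.0309 for Crem, 0.0348 for Srebf1, 0.0478 for Tfam, the mitochondrial transcription factor gene, and 0.0486 for Foxo1. Tfam differed by 0.69 at point 1 (limma, adjusted p 0.514) and by -0.56 at point 5 (limma, adjusted p 0.0444), a call lost without insulin replicate 1 or 3 or PBS replicate 2 or 3 (up to 0.171).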

How the results depend on the processing

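The Ppargc1a calls at points 3, 4 and 5 held in every alternative fitted, with a point 3 difference of 2.51 to 2.80 over left-out libraries and up to 3.11 with pseudocount 0.1. A filter at a mean of 5 FPKM removed Ppargc1a and Ppargc1b, which could not be fitted under it. Esrra passed the threshold at point 5 with that filter (-0.548, adjusted p 0.046) and when the fit held the 6 point 5 libraries alone (-0.548, adjusted p 0.0327). With the replicate block, whose numbers did not pair the samples (r of same-numbered deviations -0.111 to 0.122, 1 of 15 over 0.1), Esrra passed at points 3, 4 and 5 (-0.565, -0.538 and -0.548, adjusted p 0.0322, 0.0352 and 0.0255). The block changed no other member's call at a point. With the block, 5, 450 and 1957 of all genes were called at points 1, 2 and 3, against 1, 184 and 1284 without it, and 7 and 18 list genes fell at points 2 and 3. Over left-out libraries the Esrra difference ran from -0.735 to -0.321 at point 2, -0.694 to -0.493 at point 3, -0.754 to -0.321 at point 4 and -0.579 to -0.527 at point 5. It passed at points 2, 3 and 5 with the whole PBS replicate 1 series left out (-0.735, -0.694 and -0.56, adjusted p 0.0304, 0.0294 and 0.0414), but not with that library of the point alone left out (0.0545, 0.0682 and 0.095). At point 4 it passed without insulin replicate 3 (0.0166, or 0.031 with the whole series left out), and -0.321 was the value without insulin replicate 1. Of 45 recomputed correlations of the genes most like a member, 13 moved, 5 of them Spearman's rho for Ppargc1a and 8 within the insulin libraries. Variation of Ppargc1b over points in the insulin arm passed with series as a random effect (adjusted p 0.0375). Its mean over points, called at -0.20, was not called with median-ratio scaling (-0.103), quantile normalization (-0.083) or the random effect (-0.201), and ran from -0.282 to -0.121 over left-out series (-0.226 without insulin replicate 1, -0.136 without insulin replicate 3). With median-ratio scaling 0 and 4 list genes fell at points 2 and 3, 11, 16 and 16 rose at points 3, 4 and 5, and 13 fell at point 5, and 2 of all genes were called at point 1. Quantile normalization gave the same counts except 15 that rose at point 4 and 4 of all genes at point 1. With 1 library left out, list genes that rose numbered 1 to 5, 2 to 6, 4 to 7 and 6 to 10 at points 2 to 5. Those that fell numbered 0 to 2, 0 to 7, 4 to 8, 3 to 21 and 10 to 22 at points 1 to 5. All genes called numbered 0 to 62, 84 to 456, 583 to 845, 635 to 2396 and 1121 to 2545. The cause of these changes was not tested. Depth is unknown, so no value carries a counting interval.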
